A study of Mus musculus with 4 samples.

Results

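The genes described here are 10 transcription regulators of the AP-1 and immediate early group: Fos, Fosb, Fosl1 and Fosl2 of the FOS family, Jun, Junb and Jund of the JUN family, and Atf3, Egr1 and Ier2. They were taken by symbol from the deposited tables, where all 10 were found among 20611 genes. The tissue was dorsal skin of BALB/c males, 8 to 9 weeks old, taken on day 6. Every animal had been given imiquimod (IMQ) cream at 5%, in a daily amount of 47 mg from day 1 to day 5. Imiquimod is a Toll-like receptor 7 ligand that gives a psoriasis-like dermatitis in mice. The IMQ+IDMF group (1 library) also received a lotion holding IDMF, isosorbide di-(methyl fumarate), which is a pro-drug of dimethyl fumarate, about 1 h after the cream. The IMQ+VEH group (2 libraries, replicates 1 and 2) received the lotion without the compound, and the IMQ group (1 library) received the cream alone. The number of mice behind a library was not given in the sources used here. Skin without imiquimod was not analysed here.

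AP-1 is a dimer of basic leucine zipper proteins. JUN proteins pair with each other or with FOS proteins, whereas FOS proteins need a JUN partner to bind DNA. Immediate early genes are transcribed within minutes of a growth factor, cytokine or stress signal, without new protein synthesis, largely through MAP kinases, serum response factor and CREB or ATF factors. In keratinocytes AP-1 takes part in proliferation, differentiation and the expression of inflammatory mediators, and in mice the combined loss of Jun and Junb from the epidermis gives a psoriasis-like disease. In GENCODE M21 (GRCm38) Fos lies on chromosome 12 (85473890 to 85477273), Fosb on chromosome 7 (19302696 to 19310051) and Fosl2 on chromosome 5 (32135801 to 32157842). Jun lies on chromosome 4 (95049034 to 95052222), Junb (84974484 to 84978718), Jund (70698949 to 70700616) and Ier2 (84661331 to 84662852) all lie on chromosome 8, and Atf3 lies on chromosome 1 (191170296 to 191218039).

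RefSeq promoter windows (GRCm38.p6) were found for 7 of the 10 members, and not for Fosl1, Egr1 and Ier2. Of the 7, those of Fos, Fosl2, Jun and Junb are shown because these genes were lower in both IMQ+VEH libraries than in IMQ, and that of Atf3 because it was higher. Each sequence is the 250 bases before the RefSeq start, 5′ to 3′ on the gene's strand. For Junb this start is not a GENCODE M21 transcript start, and for the other 4 shown it is. The windows lie at chr12:85473640-85473889 (+ strand) for Fos, chr5:32136222-32136471 (+) for Fosl2, chr4:95052223-95052472 (−) for Jun, chr8:84978749-84978998 (−) for Junb and chr1:191183334-191183583 (−) for Atf3. Capitals mark matches to the motifs searched on both strands, the GC box GGGCGG excepted, which was left in lower case.
Fos: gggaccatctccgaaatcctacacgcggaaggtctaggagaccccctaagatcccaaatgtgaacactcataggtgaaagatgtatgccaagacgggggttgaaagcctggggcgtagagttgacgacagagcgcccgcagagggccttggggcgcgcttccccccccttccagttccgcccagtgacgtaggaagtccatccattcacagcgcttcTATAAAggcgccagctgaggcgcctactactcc
Fosl2: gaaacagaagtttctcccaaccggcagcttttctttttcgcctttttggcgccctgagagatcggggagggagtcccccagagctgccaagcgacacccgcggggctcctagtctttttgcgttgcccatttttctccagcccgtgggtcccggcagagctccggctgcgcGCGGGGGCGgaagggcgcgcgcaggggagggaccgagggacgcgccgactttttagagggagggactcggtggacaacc
Jun: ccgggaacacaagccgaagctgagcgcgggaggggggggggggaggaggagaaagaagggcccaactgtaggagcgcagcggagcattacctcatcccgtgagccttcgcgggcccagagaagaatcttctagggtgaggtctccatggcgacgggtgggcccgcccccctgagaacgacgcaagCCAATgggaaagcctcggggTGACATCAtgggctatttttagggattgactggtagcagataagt
Junb: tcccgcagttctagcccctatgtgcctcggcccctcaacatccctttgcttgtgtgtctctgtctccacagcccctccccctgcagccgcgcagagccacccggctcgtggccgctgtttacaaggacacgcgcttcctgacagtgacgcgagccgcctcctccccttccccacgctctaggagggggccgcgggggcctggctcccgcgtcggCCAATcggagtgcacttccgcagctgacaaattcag
Atf3: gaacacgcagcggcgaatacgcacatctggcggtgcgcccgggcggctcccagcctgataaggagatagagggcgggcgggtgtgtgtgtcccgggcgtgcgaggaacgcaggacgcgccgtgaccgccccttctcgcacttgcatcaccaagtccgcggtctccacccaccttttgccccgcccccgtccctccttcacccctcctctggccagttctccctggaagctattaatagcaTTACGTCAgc
Fos held a TATA box (TATAAA) at -33 to -28 from the start, a motif in 12.4% of 32851 promoter windows of this length. Jun held the TRE-like octamer TGACATCA at -45 to -38, found in 2.93% of windows, and a CCAAT motif, found in 33.8%. Junb also held CCAAT. Fosl2 held the EGR motif GCGNGGGCG, found in 4.7% of windows, which overlaps a GC box there. Atf3 held the CRE-like octamer TTACGTCA at -10 to -3, found in 0.447% of windows. No window of the 7 members held the full CRE octamer TGACGTCA (1.55% of windows), the AP-1 heptamer TGANTCA (6.75%) or a CArG box (1.47%) in these 250 bases. GC boxes were in 5 of the 7 windows, against 32.7% of all windows. The members' windows had a GC content of 58.4% to 68.8%, Jund excepted at 47.6%, against a median of 52.4%. The Jund window ends at base 70697738 and the GENCODE gene starts at 70698949, so its motifs and GC content are not those beside that start.

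Total counts were 21991604 in IMQ+IDMF, 26639628 and 21167149 in IMQ+VEH replicates 1 and 2, and 26337985 in IMQ. A count of 3, taken as the floor of detection, corresponds to between 0.107 and 0.146 CPM, which is the count scaled to library size, and covers counting error only. All 10 members passed the filter on low counts, which kept 15068 genes. The members together took 0.0839% of counts in IMQ+IDMF, 0.0776% and 0.0765% in IMQ+VEH, and 0.094% in IMQ. Skin identity was evident from keratinocyte markers: the 8 basal keratinocyte markers summed to 9466 to 16032 CPM per library. Skeletal muscle markers were also abundant, at 11898 to 22537 CPM. The spread between samples was measured only in the IMQ+VEH pair, so p-values assume that the single IMQ+IDMF and IMQ libraries vary like that pair. How replicate 2 was processed relative to replicate 1 is not stated in the labels.

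Levels of different genes are compared here in FPKM, which accounts for transcript length. Junb had the highest FPKM of the 10 members in every library, and Fosb and Fosl1 the lowest. In the IMQ+VEH pair Junb averaged 77.7 ± 5.11 FPKM (SD, n = 2), followed by Jund at 44.0 ± 1.67 and Ier2 at 41.5 ± 2.99. Jun averaged 22.9 ± 1.31, Egr1 22.2 ± 0.74 and Fosl2 20.1 ± 0.592. Fos averaged 6.31 ± 1.36, Atf3 4.45 ± 1.81, Fosl1 0.525 ± 0.534 and Fosb 0.258 ± 0.212. Neighbours in this order that did not differ beyond their spread were Jund and Ier2, Jun and Egr1, Fos and Atf3, and Fosl1 and Fosb. Egr1 exceeded Jun in IMQ+IDMF, at 32.7 against 25.3 FPKM, and Fosb and Fosl1 stood below 1 FPKM in every library.

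**Figure D1:**
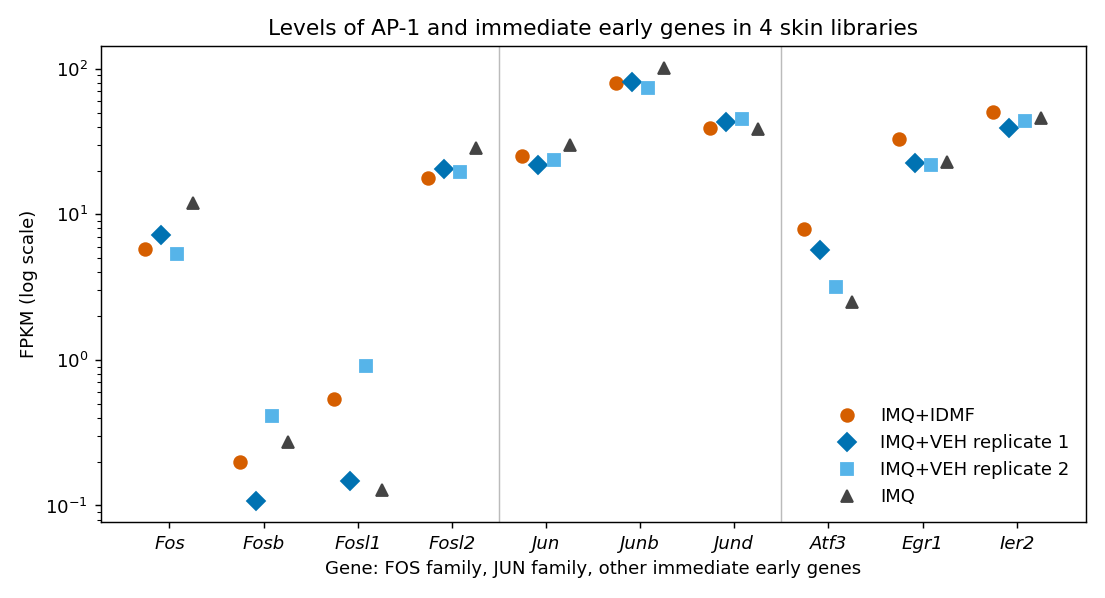
FPKM of the 10 genes (y axis, log scale) in each of the 4 libraries; each point is 1 library, and grey lines part the FOS family, the JUN family and the other genes. Junb lies highest in every library, IMQ lies above the other libraries for Fos, Fosl2, Jun and Junb, and IMQ+IDMF lies above the others for Atf3, Egr1 and Ier2.

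Within the FOS family, Fosl2, which encodes FRA-2, carried most of the FPKM. Fosl2 had 17.8 FPKM in IMQ+IDMF, 20.5 and 19.7 FPKM in IMQ+VEH, and 28.7 FPKM in IMQ. The IMQ library stood highest and IMQ+IDMF lowest, below both IMQ+VEH libraries. In log2 fold change IMQ+IDMF against IMQ+VEH gave -0.14 (SE 0.29), and IMQ+VEH against IMQ gave -0.61 (SE 0.28), with an unadjusted p of 0.04995 and an edgeR adjusted p of 0.567.

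Fos, the founding member whose transcript and protein are short-lived, had 5.76 FPKM in IMQ+IDMF, 7.27 and 5.35 FPKM in IMQ+VEH, and 12.0 FPKM in IMQ. In counts these were 336, 498 and 291, and 828. IMQ lay above all 3 lotion-treated libraries, and IMQ+IDMF lay between the IMQ+VEH libraries. The log2 fold change of IMQ+VEH against IMQ was -1.03 (SE 0.31, 95% interval -1.71 to -0.35), which is 0.49 times the IMQ level. This was the smallest p of the 10 members in either comparison, at 0.00647 unadjusted, and it did not pass the threshold after adjustment over 15068 genes (edgeR adjusted p = 0.258). The value of IMQ+IDMF against IMQ+VEH was -0.09 (SE 0.33, 95% interval -0.80 to 0.62).

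Fosl1, which encodes FRA-1, and Fosb had few counts. Fosl1 had 24 counts in IMQ+IDMF, 5 and 37 in IMQ+VEH, and 6 in IMQ. The IMQ+VEH libraries thus lay at both ends: the exact 95% Poisson intervals of their counts were 1.62 to 11.7 and 26.1 to 51.0, for counting error only. IMQ+VEH against IMQ gave a log2 fold change of 2.01 (SE 1.40), which became -0.40 without replicate 2 and 2.90 without replicate 1. For IMQ+IDMF against IMQ+VEH it was 0.15 (SE 1.18), and 2.56 without replicate 2 and -0.75 without replicate 1. An exon of Fosl1 (chromosome 19, 5447547 to 5455946, GRCm38, GENCODE M21) overlaps Ccdc85b on the other strand. Without the strand setting of the counting, which the labels do not state, the reads of both genes cannot be told apart there. Ccdc85b had 538 counts in IMQ+IDMF, 606 and 433 in IMQ+VEH, and 384 in IMQ, not scaled to library size. How many Fosl1 counts fell in the shared exon was not tested.

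Fosb had 22 counts in IMQ+IDMF, 14 and 42 in IMQ+VEH, and 33 in IMQ. Here too the IMQ+VEH pair enclosed both other libraries. Its Poisson intervals in the pair were 7.65 to 23.5 and 30.3 to 56.8 counts. IMQ+IDMF against IMQ+VEH gave a log2 fold change of -0.35 (SE 0.99), with 0.97 without replicate 2 and -1.05 without replicate 1. For IMQ+VEH against IMQ it was -0.05 (SE 0.95), with -1.37 without replicate 2 and 0.65 without replicate 1. Neither gene's direction was fixed by these libraries.

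Of the JUN family, Junb, which in skin restrains proliferation and cytokine output, had 79.4 FPKM in IMQ+IDMF, 81.3 and 74.0 FPKM in IMQ+VEH, and 102 FPKM in IMQ. By CPM it had 179 in IMQ+IDMF, 172 and 170 in IMQ+VEH, and 240 in IMQ. IMQ stood above the rest on both scales. IMQ+IDMF lay slightly above both IMQ+VEH libraries by CPM and between them by FPKM. Log2 fold changes were 0.07 (SE 0.29) for IMQ+IDMF against IMQ+VEH and -0.49 (SE 0.29, adjusted p = 0.734 by edgeR) for IMQ+VEH against IMQ. Exons of Junb overlap those of Prdx2 on the other strand, which had 7746 counts in IMQ+IDMF, 8128 and 7693 in IMQ+VEH, and 8714 in IMQ. These counts are not scaled to library size, so their order is not that of Prdx2 levels. Jun and Jund overlap Junos and Gm11175 on the other strand, so that reads of these genes may be in the JUN counts and sums as well.

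Jun, the partner that FOS proteins most often bind, had 25.3 FPKM in IMQ+IDMF, 21.9 and 23.8 FPKM in IMQ+VEH, and 30.0 FPKM in IMQ. The IMQ+IDMF library lay above both IMQ+VEH libraries and below IMQ. The log2 fold change was 0.18 (SE 0.27) for IMQ+IDMF against IMQ+VEH and -0.49 (SE 0.27, adjusted p = 0.681 by edgeR) for IMQ+VEH against IMQ.

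Jund, the JUN gene known for steady expression in resting cells, varied least. It had 39.2 FPKM in IMQ+IDMF, 42.8 and 45.2 FPKM in IMQ+VEH, and 38.7 FPKM in IMQ. Its highest library exceeded its lowest by 1.17 times in CPM, against 1.41 for Junb, 1.53 for Jun, 1.69 for Fosl2, 2.3 for Fos, 4.1 for Fosb and 10.1 for Fosl1. The IMQ+IDMF library lay below both IMQ+VEH libraries by CPM and by FPKM. The IMQ+VEH libraries lay on both sides of IMQ by TMM-scaled CPM and above it by FPKM. Log2 fold changes were -0.13 (SE 0.29) for IMQ+IDMF against IMQ+VEH and 0.09 (SE 0.29) for IMQ+VEH against IMQ.

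Set against each other, the families differed in how far the lotion-treated libraries lay below IMQ. The JUN genes summed to 144 FPKM in IMQ+IDMF, 146 and 143 in IMQ+VEH, and 170 in IMQ. The FOS genes summed to 24.3 FPKM in IMQ+IDMF, 28.1 and 26.4 in IMQ+VEH, and 41.1 in IMQ. The ratio of summed JUN to summed FOS FPKM was therefore 5.92 in IMQ+IDMF, 5.20 and 5.42 in IMQ+VEH, and 4.14 in IMQ. IMQ had the lowest ratio and IMQ+IDMF the highest, outside the range of the IMQ+VEH pair (5.31 ± 0.157, SD, n = 2). The difference of the FOS sum to IMQ was -40.8% in IMQ+IDMF and -33.7% in the IMQ+VEH mean, and that of the JUN sum was -15.4% in IMQ+IDMF and -15.1% in the IMQ+VEH mean. The ratio is a description and was not tested.

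Within each family a single gene made up most of the sum. Fosl2 made up 73.3% of FOS FPKM in IMQ+IDMF, 73.2% and 74.7% in IMQ+VEH, and 69.9% in IMQ. Fos made up 23.7% in IMQ+IDMF, 25.9% and 20.3% in IMQ+VEH, and 29.1% in IMQ. Junb made up 55.2% of JUN FPKM in IMQ+IDMF, 55.7% and 51.8% in IMQ+VEH, and 59.7% in IMQ, while Jund made up 27.2% in IMQ+IDMF, 29.3% and 31.6% in IMQ+VEH, and 22.7% in IMQ. With Jund left out, the ratio was 4.30 in IMQ+IDMF, 3.68 and 3.71 in IMQ+VEH, and 3.20 in IMQ, in the same order. Each gene counted equally in a mean of log2 FPKM with a pseudocount of 0.1. The log2 difference in JUN over FOS was then 0.02 for IMQ+IDMF minus IMQ+VEH, in place of 0.16 for the sums. For IMQ+VEH minus IMQ it was -0.07, in place of 0.36. In such a mean the scarce Fosb and Fosl1 weigh as much as Fosl2, and the part of each gene in the change was not tested.

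**Figure D2:**
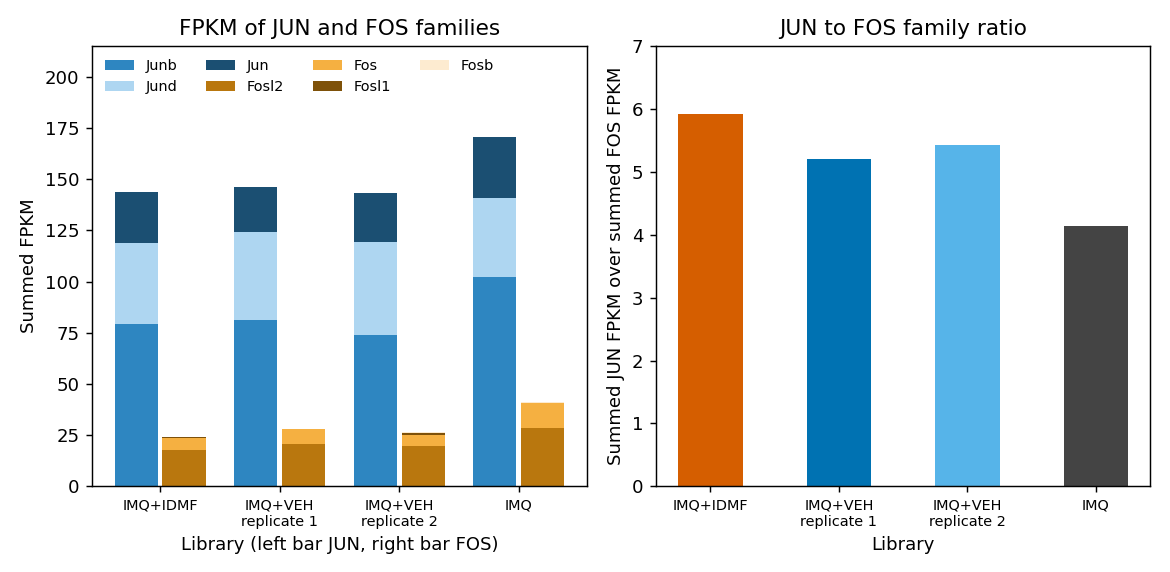
Left, summed FPKM of the JUN genes (left bar) and FOS genes (right bar) in each library, split by gene; right, the ratio of the 2 sums. The JUN sum is 144 FPKM in IMQ+IDMF, 146 and 143 in IMQ+VEH and 170 in IMQ, the FOS sum is 24.3 in IMQ+IDMF, 28.1 and 26.4 in IMQ+VEH and 41.1 in IMQ, and the ratio is lowest in IMQ, at 4.14. Each bar is 1 library, so there is no error bar.

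The 3 members outside the FOS and JUN families were highest in the IMQ+IDMF library. Atf3 encodes a stress-induced basic leucine zipper protein that represses many inflammatory genes and can pair with JUN. It had 433 counts in IMQ+IDMF, 368 and 162 in IMQ+VEH, and 163 in IMQ, which was 7.92 FPKM in IMQ+IDMF, 5.73 and 3.18 FPKM in IMQ+VEH, and 2.51 FPKM in IMQ. IMQ+IDMF was highest and IMQ lowest, but the IMQ+VEH libraries themselves differed by -0.73 in log2 CPM (replicate 2 minus replicate 1). The log2 fold change of IMQ+IDMF against IMQ+VEH was 0.88 (SE 0.40, 95% interval 0.01 to 1.75), 1.29 without replicate 1 and 0.56 without replicate 2. Its unadjusted p was 0.0483 and its edgeR adjusted p was 1. For IMQ+VEH against IMQ it was 0.71 (SE 0.43, adjusted p = 0.741 by edgeR), 0.30 without replicate 1 and 1.03 without replicate 2.

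Egr1, a zinc finger activator induced through serum response factor, had 2893 counts in IMQ+IDMF, 2359 and 1788 in IMQ+VEH, and 2404 in IMQ. Per length this was 32.7 FPKM in IMQ+IDMF, 22.7 and 21.7 FPKM in IMQ+VEH, and 22.9 FPKM in IMQ. The IMQ+IDMF library stood apart from 3 libraries that lay close together. The log2 fold change of IMQ+IDMF against IMQ+VEH was 0.59 (SE 0.26, 95% interval 0.03 to 1.16), with 0.57 without replicate 1 and 0.62 without replicate 2. The unadjusted p was 0.0395 and the edgeR adjusted p was 1. IMQ+VEH against IMQ had -0.15 (SE 0.26).

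Ier2, an immediate early nuclear protein of the growth factor response, had 50.8 FPKM in IMQ+IDMF, 39.4 and 43.6 FPKM in IMQ+VEH, and 45.8 FPKM in IMQ. The IMQ+IDMF library was highest and both IMQ+VEH libraries lowest. Log2 fold changes were 0.32 (SE 0.27) for IMQ+IDMF against IMQ+VEH and -0.24 (SE 0.27) for IMQ+VEH against IMQ, with adjusted p of 1 and 0.956 by edgeR.

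Setting IMQ+IDMF against IMQ+VEH asks what the compound adds to the lotion. None of the 10 members was called by edgeR's quasi-likelihood test (each had an adjusted p of 1), and 0% of 15068 genes were called in either direction. By edgeR 306 genes had an unadjusted p under 0.05, or 2.03%, and DESeq2 called 0 genes with 182 at an unadjusted p under 0.05. Atf3 and Egr1 were the 2 members among those 306. By direction 5 members (Jun, Junb, Atf3, Egr1 and Ier2) lay above both IMQ+VEH libraries, against 27.6% of all genes. Below both lay Fosl2 and Jund, against 27.5% of all genes, and the other FOS genes lay between. The 7 members outside the pair compare with 55.1% of all genes, and 5 of them lay farther from the pair's mean than the pair's own difference, against 33.7%. IMQ+IDMF was the highest of the 4 libraries for 3 members, against 19.2% of all genes. The count above both was 4 by FPKM, where Junb lay between. The median log2 CPM difference of IMQ+IDMF to the IMQ+VEH mean was 0.13 over the members and 0.01 over all tested genes. For Junb, Jund, Jun and Fosl2 the 95% intervals ran between -0.77 and 0.77, while those of Fosb and Fosl1 ran from -2.49 to 1.79 and from -2.42 to 2.72. All these intervals assume that the 1 IMQ+IDMF library varies like the IMQ+VEH pair. They do not measure the spread among IDMF-treated samples.

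**Figure D3:**
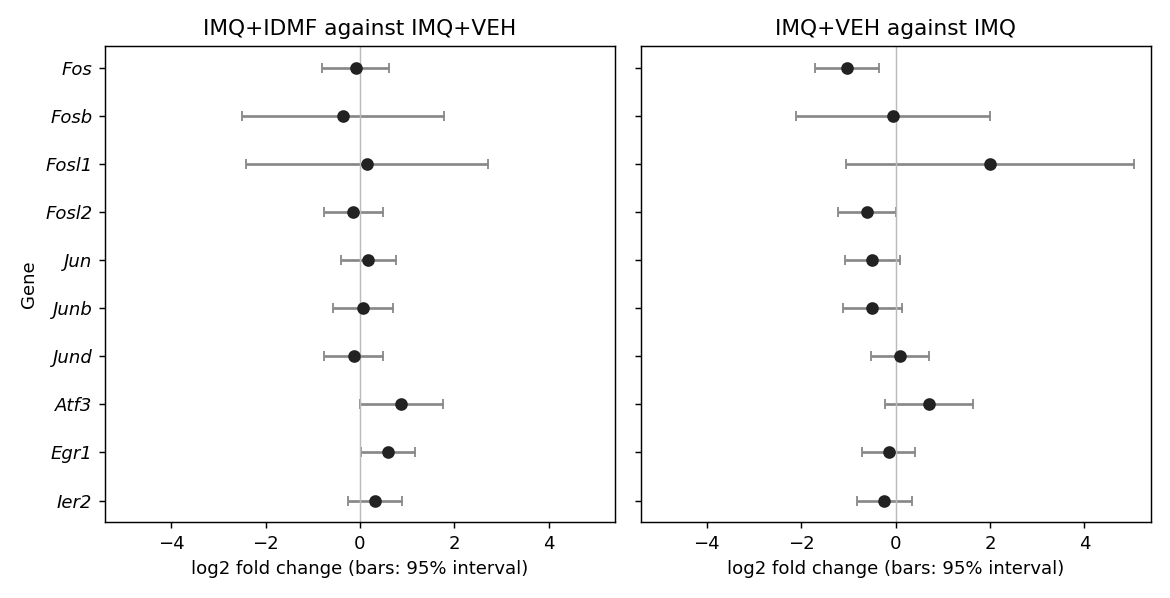
Log2 fold change (x axis) of each gene in IMQ+IDMF against IMQ+VEH (left) and in IMQ+VEH against IMQ (right), from the edgeR fit of 4 libraries; points are estimates and bars 95% intervals. Atf3 (0.88) and Egr1 (0.59) lie farthest above 0 of the well-counted genes on the left, and Fos (-1.03) lies farthest below 0 on the right; the widest bars are those of Fosb and Fosl1.

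Setting IMQ+VEH against IMQ asks what the lotion without the compound does. None of the 10 members passed the threshold by edgeR, which called 0.664% of 15068 genes, 0.338% higher and 0.325% lower. DESeq2 called 202 of 13150 genes, and none of the 8 members it gave an adjusted p. Unadjusted, Fos and Fosl2 were the 2 members with p under 0.05, against 8.81% of all genes by edgeR. Both IMQ+VEH libraries lay below IMQ for 6 members (Fos, Fosl2, Jun, Junb, Egr1 and Ier2), against 35% of all genes, and above it for Atf3, against 33.5%. IMQ was the highest library for 4 members, against 30.1% of all genes. By FPKM Fosl1 and Jund were above IMQ in both libraries too. The median difference of the IMQ+VEH mean to IMQ was -0.28 in log2 CPM over the members and -0.01 over all tested genes. For 5 members (Fos, Fosl2, Jun, Junb and Egr1) both libraries lay on the same side of IMQ by more than the pair differed, which held for 47.3% of all genes.

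IMQ+IDMF and IMQ are 1 library each, so sizes are given without a test. Atf3 was 3.01 times and Fosl1 4.46 times the IMQ level in IMQ+IDMF, and Fos was 0.461 times. These 3 were over 2-fold apart in log2 CPM, against 11.3% of all genes (6.78% over 2-fold higher and 4.51% over 2-fold lower). The Fosl1 value rests on 24 counts in IMQ+IDMF and 6 in IMQ, while the IMQ+VEH libraries had 5 and 37. The 4.46 times is from the fit, and the Fosl1 difference in log2 CPM was 1.86. Fosl2 was 0.593, Junb 0.748, Fosb 0.758, Jun 0.807 and Jund 0.969 times the IMQ level, Ier2 was 1.06 times and Egr1 1.37 times. Of the 10, IMQ+IDMF lay above IMQ for 4, against 50.1% of all genes. Both sets of values against IMQ share the IMQ library. For Fos, IMQ+IDMF and IMQ+VEH against it gave -1.12 and -1.03 in log2, for Fosl2 -0.75 and -0.61, for Junb -0.42 and -0.49, and for Egr1 0.45 and -0.15.

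Other genes of the pathway were taken from lists of known genes. Of 38 other immediate early genes tested, 0 passed the threshold in either comparison. IMQ+IDMF lay above both IMQ+VEH libraries for 12 and below both for 6, against 27.6% and 27.5% of all genes, with a median log2 CPM difference of 0.07 to the IMQ+VEH mean. Both IMQ+VEH libraries lay below IMQ for 20 and above it for 12, against 35% and 33.5% of all genes, with a median of -0.11. The 4 farthest above both IMQ+VEH libraries in IMQ+IDMF were Ier5l, Nr4a1, Per1 and Plk2. Nr4a1, an orphan nuclear receptor induced like Egr1, had 24.1 CPM in IMQ+IDMF, 17.9 and 18.2 CPM in IMQ+VEH, and 12.3 CPM in IMQ. Per1, a clock repressor that is also an immediate early gene, had 39.2 CPM in IMQ+IDMF, 27 and 29.7 CPM in IMQ+VEH, and 29.6 CPM in IMQ. Ier5l had a log2 fold change to IMQ+VEH of 0.54 (SE 0.41) and the kinase gene Plk2 of 0.33 (SE 0.26).

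**Figure D4:**
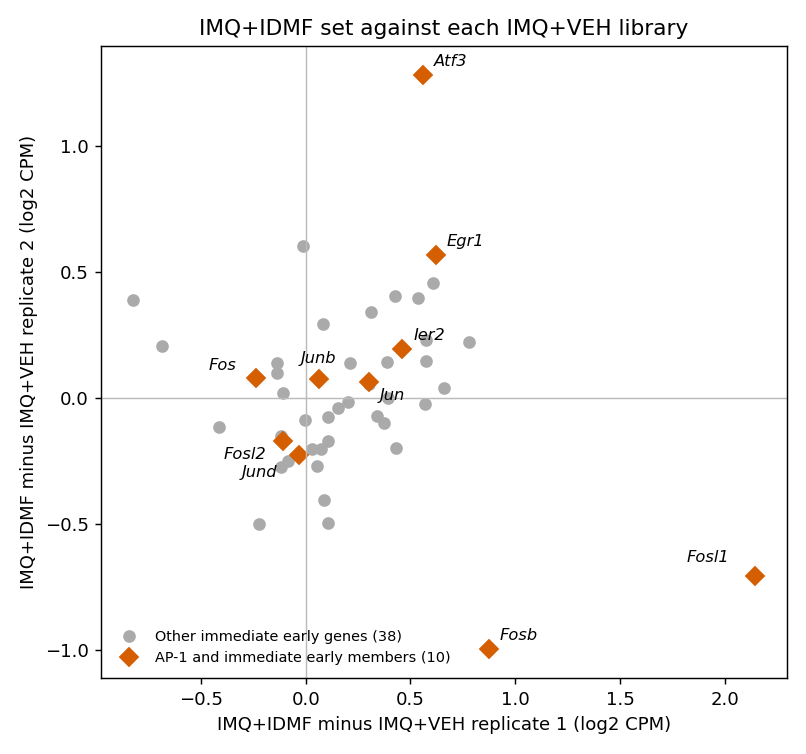
Log2 CPM difference of IMQ+IDMF to IMQ+VEH replicate 1 (x axis) and to replicate 2 (y axis) for the 10 members (orange diamonds) and 38 other immediate early genes (grey points). Atf3 (0.56 and 1.28), Egr1 (0.62 and 0.57) and Ier2 (0.46 and 0.19) lie above 0 on both axes, and Fosl1 (2.15 and -0.71) lies on opposite sides of 0, as does Fosb.

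Dimer partners and signal regulators are read against the same shares of all genes, 27.6% above and 27.5% below both IMQ+VEH libraries. For the IMQ+VEH libraries against IMQ, the shares of all genes are 35% with both below and 33.5% with both above. Of 17 AP-1 dimer partners, 5 lay above and 5 below both IMQ+VEH libraries (median 0.03 in log2 CPM), with 0 called. Mafg, a small MAF protein, had 0.28 (SE 0.30) and Atf5 0.10 (SE 0.26), and Atf6 and Creb1 had 0.18 (SE 0.26) and 0.05 (SE 0.26). With a median close to 0, the rule for naming took these genes from the 5 above both. Both IMQ+VEH libraries lay above IMQ for 6 of the partners and below it for 5 (median -0.01). Of 15 MAP kinase phosphatase and feedback genes, 6 lay above and 2 below both IMQ+VEH libraries (median -0.01), with 0 called. The median was close to 0, and the rule for naming took the genes on its side, which were the 2 below: Spred3, an inhibitor of the RAS pathway, at -0.89 (SE 0.69), and Dusp10, a phosphatase of JNK and p38, at -0.40 (SE 0.44). Against IMQ, 7 of these 15 were above in both IMQ+VEH libraries and 3 below (median 0.09).

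Of 32 MAP kinase, SRF, ELK and CREB regulator genes tested, 6 lay above and 10 below both IMQ+VEH libraries in IMQ+IDMF (median -0.05), with 0 called. The genes named were taken from those below, on the side of the median. The SRF partner Elk1 had 13.7 CPM in IMQ+IDMF, 16.3 and 17.4 CPM in IMQ+VEH, and 16.6 CPM in IMQ. The JNK genes Mapk8 and Mapk9 had -0.14 (SE 0.30) and -0.28 (SE 0.31), and Map2k4, a kinase of JNK, had -0.20 (SE 0.30). Both IMQ+VEH libraries lay below IMQ for 16 of the 32 and above it for 5 (median -0.10), against 35% and 33.5% of all genes. The heat shock list was chosen with earlier results of these data known, and all its values share the 1 IMQ+IDMF library. Of its 14 genes, 10 lay above and 1 below both IMQ+VEH libraries in IMQ+IDMF (median 0.17), with 0 called. Of all genes, 27.6% lay above both and 27.5% below both. Examples were Hsph1 at 0.39 (SE 0.27), Hsf1 at 0.28 (SE 0.28), Bag3 at 0.26 (SE 0.26) and Hspd1 at 0.17 (SE 0.30). Against IMQ, 5 of the 14 were above in both IMQ+VEH libraries and 5 below (median -0.02), where 33.5% and 35% of all genes were.

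Among 35 known AP-1 target genes tested, 7 lay above and 7 below both IMQ+VEH libraries in IMQ+IDMF (median 0.03), with 0 called. Of all genes, 27.6% lay above both and 27.5% below both. The cyclin gene Ccnd1 had 79.8 CPM in IMQ+IDMF, 51.2 and 59.9 CPM in IMQ+VEH, and 54.3 CPM in IMQ, a log2 fold change to IMQ+VEH of 0.52 (SE 0.26). The basal keratin gene Krt5 had 0.33 (SE 0.67) and the chemokine gene Cxcl1 0.58 (SE 0.64). Il1b had 66 counts in IMQ+IDMF, 28 and 46 in IMQ+VEH, and 245 in IMQ. The list's median was close to 0, and the rule for naming took Ccnd1, Krt5, Cxcl1 and Il1b from its side. The 7 targets below both are therefore not named. Both IMQ+VEH libraries lay below IMQ for 15 of the 35 and above it for 7 (median -0.19), against 35% and 33.5% of all genes. In IMQ+VEH against IMQ edgeR called 1 of the 35 targets, Cxcl2, against 0.664% of all genes (0.325% lower). Cxcl2, a neutrophil chemokine, had 6 counts in IMQ+IDMF, 0 and 0 in IMQ+VEH, and 87 in IMQ. It passed the filter on low counts only through the IMQ library, so its call and size depend on that 1 library. Cxcl2 was at least 23.5-fold lower in IMQ+VEH than in IMQ, with IMQ+VEH set at the floor of 3 counts per library.

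The genes with the profile most like Fos were sought over the 4 libraries, by the root mean square distance of centred log2 CPM among 12377 genes that are not members. The nearest was Hbegf (distance 0.042), a ligand of the EGF receptor that is on the AP-1 target list. It had 471 counts in IMQ+IDMF, 642 and 392 in IMQ+VEH, and 1115 in IMQ. Cyp4f17 (0.060), Phf21b (0.070) and the cholesterol exporter gene Abcg1 (0.072) followed, and 19 genes lay nearer than 0.1. For Jun the nearest were Qpctl (0.005), Tgif2 (0.013), Zfp750 (0.013), a regulator of epidermal differentiation, and Prpf38b (0.018), and 400 genes lay nearer than 0.1. Among the members, Fosl2 lay nearest to Fos (0.222) and Junb nearest to Jun (0.101). With 4 points sharing the same libraries, such distances describe the profiles and carry no test.

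**Figure D5:**
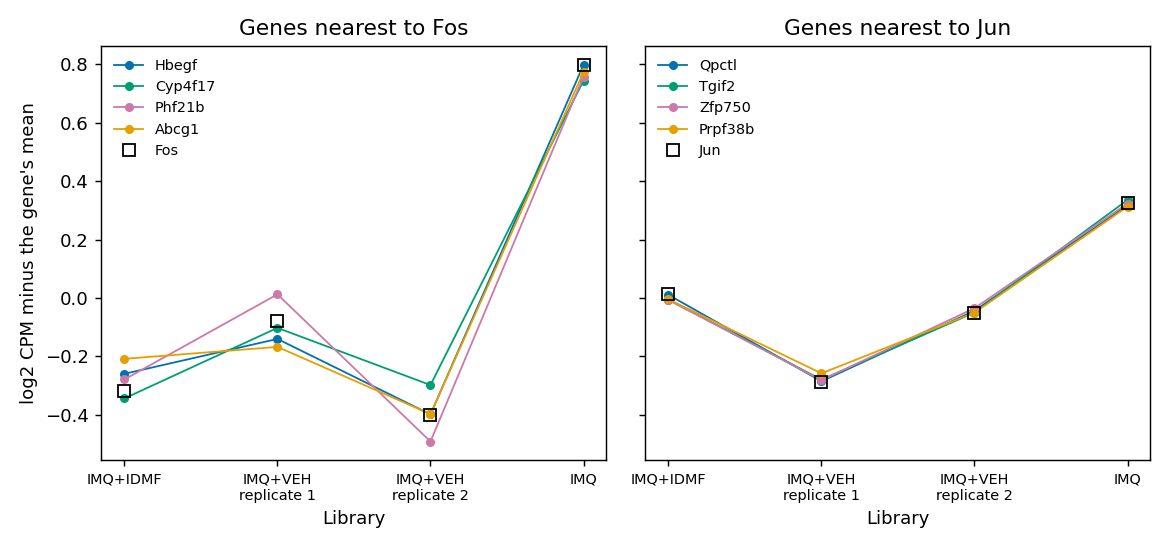
Log2 CPM minus each gene's mean over the 4 libraries (y axis) for Fos with its 4 nearest genes (left) and Jun with its 4 nearest (right); open squares are Fos and Jun, and lines only join the libraries of a gene. IMQ lies highest in both panels, and the range of Jun is narrower than that of Fos.

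Markers of other cells moved with these libraries, and their part in the values above was not tested. In whole skin, fewer cells of a type and less RNA per cell cannot be told apart. In IMQ+IDMF, where Atf3, Egr1 and Ier2 were highest, all 8 basal keratinocyte markers and all 10 hair follicle markers lay above both IMQ+VEH libraries. Of all genes, 27.6% lay above both. The basal markers summed to 11905 CPM in IMQ+IDMF, 9466 and 10142 in IMQ+VEH, and 16032 in IMQ, and the hair follicle markers to 74.7 CPM in IMQ+IDMF, 50.4 and 55.5 in IMQ+VEH, and 106 in IMQ, with Krt85 at 0 counts in both IMQ+VEH libraries. All 8 fibroblast markers and all 10 monocyte, macrophage and dendritic markers lay below both, against 27.5% of all genes. Fibroblast markers summed to 2302 CPM in IMQ+IDMF, 6622 and 3475 in IMQ+VEH, and 1802 in IMQ, and the myeloid markers to 362 CPM in IMQ+IDMF, 929 and 538 in IMQ+VEH, and 627 in IMQ. Skeletal muscle markers summed to 20997 CPM in IMQ+IDMF, 22537 and 15802 in IMQ+VEH, and 11898 in IMQ. The 8 neutrophil markers found summed to 1788 CPM in IMQ+IDMF, 4579 and 2244 in IMQ+VEH, and 8765 in IMQ, where Fos was highest too. The receptor genes Cxcr2 and Il1r2 were small parts of this sum and were not highest in IMQ. In log2 CPM Cxcr2 had 5.87 in IMQ+IDMF, 5.53 and 6.01 in IMQ+VEH, and 5.97 in IMQ. Il1r2 had 5.18 in IMQ+IDMF, 5.70 and 5.64 in IMQ+VEH, and 5.57 in IMQ. Of the 7 neutrophil markers tested, IMQ was the highest library for 3, and both IMQ+VEH libraries lay below IMQ for 3 and above it for 1. The shares of all genes were 30.1%, 35% and 33.5%. The library order of Atf3 was also that of the summed levels of 7 smooth muscle and pericyte markers (1497 CPM in IMQ+IDMF, 1366 and 1260 in IMQ+VEH, 900 in IMQ) and of 8 sebaceous gland markers (4455 CPM in IMQ+IDMF, 3841 and 3764 in IMQ+VEH, 1570 in IMQ). Des alone made up most of the first sum in every library. Its log2 CPM was 10.32 in IMQ+IDMF, 10.11 and 10.17 in IMQ+VEH, and 9.70 in IMQ. Most single markers did not follow these sums: IMQ+IDMF was the highest library for 3 of the 7 smooth muscle and pericyte markers and 1 of the 8 sebaceous gland markers. For all genes that share was 19.2%. Of 8 adipocyte markers, 5 were called higher in IMQ+VEH than in IMQ by edgeR, against 0.338% of all genes. The 8 summed to 2589 CPM in IMQ+IDMF, 3490 and 2430 in IMQ+VEH, and 752 in IMQ. Also called higher were 2 of 7 Schwann and nerve markers and 1 of 8 sebaceous gland markers. Of 10 hair follicle markers, 4 were called lower in IMQ+VEH than in IMQ, against 0.325% of all genes. Among these 10, Krt35, Krt85 and Krt71 had at most 3 counts in at least 1 IMQ+VEH library.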

How the data were processed

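Each library had 1 table of raw counts and FPKM values per gene symbol, used as deposited and with units named per the file headers. The authors left the counts without normalization and scaled FPKM (fragments per kilobase of transcript) to library size. Reads were single-end, of 50 cycles. The submitters' processing notes list GRCm38 and mm10 as builds, and HTSeq, TopHat2 and Cufflinks as tools. Their versions, annotation and strand setting were not given in the sources used here. The series' design text calls the libraries independent biological replicates.

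Counts were tested in R 4.3.3 with edgeR 4.0.16: a two-sided quasi-likelihood F test on all 4 libraries with a mean per group, TMM scaling and filterByExpr (minimum count 10, minimum total 15). The Benjamini-Hochberg method was applied over the 15068 genes kept, at a threshold of 0.05. The fit had 1 residual and 11.2 prior degrees of freedom and a common coefficient of variation of 24%. SE is the log2 fold change divided by the root of F, and 95% intervals use the t distribution. Differences between libraries are in log2 CPM with a prior count of 2. The test code was checked on simulated counts.

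All 10 members are named. From each other pathway list up to 4 genes with a mean log2 CPM of at least 1 are named, those farthest from both IMQ+VEH libraries on the side of the list's median, plus any past the threshold. Members and lists were chosen with earlier results of these data known. Positions and exon overlaps come from GENCODE M21 (GRCm38). Alternatives were DESeq2 1.42.0, other scalings and filters, a robust fit, IMQ+IDMF against the 3 other libraries, and leaving out libraries.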

Additional observations from a re-analysis of the deposited data

How the results depend on the processing

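No paired analysis was possible because IMQ+VEH alone has more than 1 replicate. No member passed the threshold under any alternative tested, with a smallest adjusted p of 0.0698 (Fos, IMQ+VEH against IMQ, no filter on low counts). Against the 3 other libraries taken as 1 group, the IMQ+IDMF values of Jun and Junb turned to -0.0029 and -0.11. Leaving out an IMQ+VEH library turned the sign of 6 of 40 member values, and moved those of Fosl1 by more than the spread of the pair. Over all genes, without a filter edgeR called 16 genes for IMQ+IDMF against IMQ+VEH and 424 for IMQ+VEH against IMQ, in place of 0 and 100, and DESeq2 called 202 in the second. The cause was not tested. The log2 JUN to FOS ratio of IMQ+IDMF minus IMQ+VEH was 0.16 for the sums, 0.22 without Jund, and 0.02 and 0.07 as means of log2 FPKM with pseudocounts of 0.1 and 1. For IMQ+VEH minus IMQ it was 0.36, 0.21, -0.07 and 0.05. Means weigh each gene equally, so the scarce Fosb and Fosl1 count as much as Fosl2. Without replicate 1 or 2 these ratios ranged from 0.13 to 0.19 and from 0.33 to 0.39. Counts of Fosb and Fosl1 were low, at 5 to 42 per library, and the counting intervals of the IMQ+VEH pair did not overlap for either gene.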
